A study of Homo sapiens with 12 samples.

Results

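The genes described here are CDK12, CDK13 and their cyclin CCNK (cyclin K), the CDK11 copies CDK11A and CDK11B, and the cyclin L genes CCNL1 and CCNL2. They were taken by their exact names, and they make up 7 of the 23621 genes measured in both cell lines. All 7 were among the 14251 active genes, those above 1 FPKM (fragments per kilobase of transcript, scaled to the mapped reads) in at least 1 of 12 libraries. RNA-seq was done on KURAMOCHI (Ku) and COV362 (Cov) cells, a pair of human ovarian cancer lines labelled as untransduced, after 6 hr with DMSO, with THZ1 at 50 nM or with THZ1 at 250 nM. Each of these 6 groups held 2 biological replicates. Ku cells were grown in RPMI and Cov cells in DMEM, both with fetal bovine serum and antibiotics, so that medium and line cannot be told apart. The comparisons ask how RNA levels changed with THZ1 in each line. RNA was normalised to cell number and mixed with ERCC spike-in RNA, and the FPKM were scaled to the spike-ins.

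THZ1 is a covalent inhibitor of CDK7 that also reaches CDK12 and CDK13, so that the drug acts on the products of some of the genes measured here. CDK12 and CDK13 each pair with cyclin K and phosphorylate the carboxyl-terminal domain of RNA polymerase II during elongation, and CDK12 is known for keeping long DNA repair genes fully expressed. CDK11, made from a pair of nearly identical neighbouring genes, pairs with cyclin L1 or L2 and acts in splicing and transcript processing. The data give RNA only, and neither protein nor kinase activity was measured in these libraries.

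In GRCh37, the build of the authors' alignment (hg19), CDK12 (ENSG00000167258) spans chr17:37617739-37723812 on the plus strand and CDK13 (ENSG00000065883) spans chr7:39989720-40139179 on the plus strand. These are long genes of 106.1 kb and 149.5 kb. CCNK (ENSG00000090061) covers 53.9 kb at chr14:99947506-100001381 on the plus strand and overlaps CCDC85C on the opposite strand. The other genes are short and lie on minus strands, CDK11A (ENSG00000008128) at chr1:1633818-1655796, CDK11B (ENSG00000248333) at chr1:1570601-1590473, CCNL1 (ENSG00000163660) at chr3:156864297-156878549 and CCNL2 (ENSG00000221978) at chr1:1321091-1334715. Their spans were 22.0 kb, 19.9 kb, 14.3 kb and 13.6 kb. CDK11B overlaps MMP23B on the opposite strand, and the strand setting used in the authors' quantification is not given in the sources used here.

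The coding stretches around the cysteine known to be modified by covalent inhibitors of CDK12 and CDK13 are shown because the genes that encode these drug targets were themselves measured. The stretches join exons 11 and 12 of each gene (chr17:37676330-37680978 for CDK12 and chr7:40118440-40127776 for CDK13, GRCh37, plus strand, with the intron between them left out), and capitals mark the codon of cysteine 1039 in CDK12 and of the aligned cysteine 1017 in CDK13.
CDK12: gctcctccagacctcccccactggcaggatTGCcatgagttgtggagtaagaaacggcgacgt
CDK13: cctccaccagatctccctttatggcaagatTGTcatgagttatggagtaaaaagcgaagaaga
The predicted proteins have 1490 and 1512 residues, and a local alignment of 1258 residues held 693 identical ones (55.1%). At the level of RNA they were told apart: no stretch of 75 bases, the read length, was shared between the CDK12 or CDK13 transcript and any other gene.

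For CDK11 this was not so. The coding sequences of CDK11A and CDK11B aligned over 2079 bases with 19 differences (99.1% identity), and 59.7% of the 75-base stretches of the CDK11A transcript were also found in CDK11B. The 75 coding bases with most differences between the copies are shown because reads are split between CDK11A and CDK11B at such bases, with capitals marking the 6 differing bases (CDK11A, chr1:1635004-1635277, exons 17 and 18; CDK11B, chr1:1571784-1572058, exons 15 and 16; GRCh37, minus strand, intron left out).
CDK11A: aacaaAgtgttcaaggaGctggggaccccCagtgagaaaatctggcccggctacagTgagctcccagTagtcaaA
CDK11B: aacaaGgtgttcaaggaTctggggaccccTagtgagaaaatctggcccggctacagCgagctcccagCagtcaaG
Counting all other genes, 84% of the CDK11A stretches were shared, since ENSG00000268575, a long noncoding RNA on the same strand that overlaps CDK11A, also holds some. For CDK11B the share was 65.9%, the same as with CDK11A alone. The division of reads is therefore uncertain, and the summed FPKM of the copies is given beside each.

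The promoters of the cyclin L genes are shown because the RNA of CCNL1 and of CCNL2 kept different shares of the DMSO level in Cov cells. A link between promoter sequence and these shares was not tested. Both are RefSeq sequences in GRCh38.p14, minus strand, from 250 bases before to 50 bases after the start, at chr3:157160098-157160397 for CCNL1 and chr1:1399286-1399585 for CCNL2. Capitals mark TGACGTCA, the cAMP response element, in CCNL1 and the ETS site CCGGAAG, read on the reverse strand, in CCNL2.
CCNL1: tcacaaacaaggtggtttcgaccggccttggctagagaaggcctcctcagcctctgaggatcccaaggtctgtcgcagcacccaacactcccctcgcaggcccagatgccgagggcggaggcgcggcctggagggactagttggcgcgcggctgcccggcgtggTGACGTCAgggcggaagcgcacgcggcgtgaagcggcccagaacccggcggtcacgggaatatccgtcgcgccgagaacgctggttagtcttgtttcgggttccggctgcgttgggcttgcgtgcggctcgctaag
CCNL2: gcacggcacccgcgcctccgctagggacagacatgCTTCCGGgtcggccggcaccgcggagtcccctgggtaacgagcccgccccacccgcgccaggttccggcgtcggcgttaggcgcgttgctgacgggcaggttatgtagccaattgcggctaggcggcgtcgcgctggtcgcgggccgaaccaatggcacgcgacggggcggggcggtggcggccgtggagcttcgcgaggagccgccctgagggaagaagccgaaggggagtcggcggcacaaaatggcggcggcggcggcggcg
Of 35116 RefSeq promoters of this length, 1.85% hold the cAMP response element and 10.3% the ETS site on either strand, and the ETS site was also in the promoter of CDK11A. The TATA box TATAAA, which 11.5% of promoters hold, was in none of the 7. Neither was the E-box CACGTG, held by 7.26% of promoters. All 7 genes had an entry in the promoter table.

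The spike-in scale shows a broad loss of RNA in which these genes have to be read. The median active gene in Ku cells changed by a log2 fold change of -0.40 at 50 nM and -1.11 at 250 nM, and in Cov cells by -0.85 and -1.31, on the log2(FPKM + 1) scale used throughout. The RNA input was normalised to cell number before library construction, so this scale is meant to read RNA per cell. The accuracy of the cell counts was not tested, and an error in them cannot be told apart from a change in RNA per cell. Replicates correlated at Pearson r of 0.968 to 0.983 across active genes. Of 7 serous and epithelial markers, 6 exceeded 1 FPKM in all libraries of each line, with MUC16 (the CA125 antigen) never above 1 in Ku and WT1 never above 1 in Cov cells. Of 6 markers of other cells, PTPRC, DCN and PECAM1 never exceeded 1 FPKM in either line, VWF was present in Ku and COL1A2 in Cov cells, and COL1A1 reached 2.59 FPKM in Ku and 3.20 in Cov cells. The summed FPKM of these 6 ranged from 5.41 to 6.25 with DMSO and from 3.39 to 3.74 at 250 nM in Ku cells, and from 44.7 to 48.5 and from 21.7 to 25.3 in Cov cells. Their part in the results was not tested.

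With DMSO, all 7 genes were moderately to highly expressed, and the cyclins and CDK11 stood above CDK12 and CDK13 in both lines. In Ku cells CCNL2 had the highest level, 86.5 ± 3.10 FPKM (SD, n = 2), which exceeded 89.6% of active genes. CDK11B followed at 35.6 ± 4.54, CCNK at 30.6 ± 3.998, CDK11A at 25.3 ± 2.26, CCNL1 at 23.1 ± 1.72, CDK12 at 19.4 ± 3.18 and CDK13 at 15.1 ± 1.79 FPKM. The libraries of CDK11B and CCNK overlapped, as did those of CDK11A and CCNL1. In Cov cells CDK11B led at 58.4 ± 1.34 FPKM, followed by CCNL2 at 52.3 ± 0.127, CCNK at 46.2 ± 3.88, CDK11A at 42.1 ± 0.919, CCNL1 at 29.8 ± 2.22, CDK12 at 19.0 ± 1.31 and CDK13 at 17.9 ± 0.661. Only the libraries of CDK12 and CDK13 overlapped in that order. The lines' tables were normalised separately, so differences between Ku and Cov levels were not tested.

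**Figure D1:**
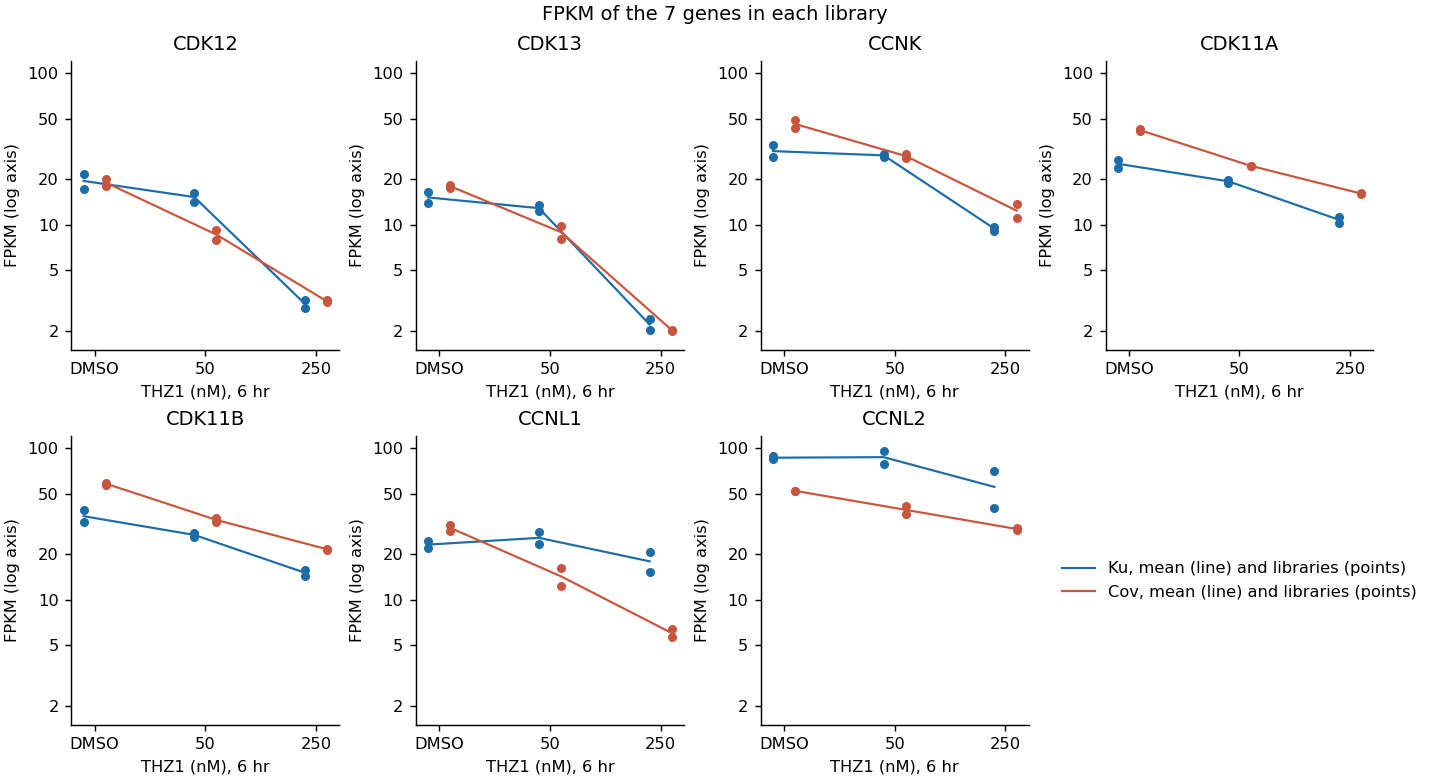
FPKM on a log axis of the 7 genes in each library (points) of Ku and Cov cells by THZ1 dose, with group means joined by lines (n = 2). CDK12 and CDK13 end near 2 to 3 FPKM at 250 nM in both lines, whereas CCNL2 stays between 28.7 and 70.7 FPKM.

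CDK12 RNA fell steeply at 250 nM in both lines. In Ku cells its FPKM was 21.7 and 17.2 with DMSO, 16.3 and 14.1 at 50 nM, and 2.84 and 3.17 at 250 nM. All treated Ku libraries lay below both DMSO libraries, with the step between 50 and 250 nM far larger than the first. The log2 fold change was -0.33 (SE 0.147, adjusted p = 0.104) at 50 nM and -2.34 (SE 0.147, adjusted p = 2.46e-05) at 250 nM by limma with Benjamini-Hochberg adjustment over the 14251 active genes. In Cov cells its FPKM was 18.1 and 19.9 with DMSO, 7.98 and 9.23 at 50 nM, and 3.17 and 3.07 at 250 nM. The 3 Cov groups did not overlap, and both doses passed the test, with -1.06 (SE 0.108, adjusted p = 8.86e-05) and -2.28 (SE 0.108, adjusted p = 1.38e-06). At 250 nM 15.4% of the mean DMSO level was left in Ku and 16.4% in Cov cells.

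CDK13, the paralog that shares cyclin K, followed nearly the same course. In Ku cells its FPKM was 16.4 and 13.9 with DMSO, 13.5 and 12.2 at 50 nM, and 2.01 and 2.38 at 250 nM. The Cov libraries gave 17.5 and 18.4, then 8.04 and 9.80, then 1.998 and 2.04. The 250 nM libraries were the lowest in each line, and none overlapped with another group. The log2 fold change in Ku cells was -0.22 (SE 0.136, adjusted p = 0.219) at 50 nM and -2.33 (SE 0.136, adjusted p = 1.97e-05) at 250 nM. In Cov cells it was -0.94 (SE 0.115, adjusted p = 1.92e-04) and -2.65 (SE 0.115, adjusted p = 1.09e-06), and 6.52% of active genes had a lower log2 fold change at 250 nM. Together CDK12 and CDK13 kept 15.0% of their summed DMSO FPKM in Ku and 13.9% in Cov cells at 250 nM.

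The fall of CDK12 and CDK13 at 250 nM went beyond that of the median active gene on every scale tried. When the libraries were rescaled to an equal median FPKM, the changes were -0.63 and -0.69 in Ku and -0.46 and -0.91 in Cov cells. With median-of-ratios scaling they were -1.09 and -1.13 in Ku and -0.87 and -1.30 in Cov cells. All of these passed the test except CDK12 in Cov cells with equal medians. Relative to the median active gene, CDK13 lay between 0.97 and 1.23 log2 units lower in Ku and between 1.22 and 1.34 lower in Cov cells over the 3 scales. Differences from the median gene were not tested. At 50 nM the direction was set by the scale, since CDK12 in Cov cells was at 0.07 with equal medians and -0.10 with median-of-ratios, and CDK13 at 0.19 and 0.02.

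CCNK, which encodes the cyclin that both kinases need, fell less than its partners at 250 nM. In Ku cells its FPKM was 33.4 and 27.8 with DMSO, 29.3 and 28.1 at 50 nM, and 9.15 and 9.69 at 250 nM. The 50 nM libraries lay within the DMSO range, with a log2 fold change of -0.08 (SE 0.107, adjusted p = 0.531). Its Cov libraries gave 43.4 and 48.9, then 27.7 and 29.1, then 13.7 and 11.1 FPKM, each group below the one before. The change at 50 nM in Cov cells, -0.68 (SE 0.117, adjusted p = 0.00101), just missed the threshold of 0.001. It turned to 0.50 with equal medians and 0.32 with median-of-ratios, neither called. At 250 nM the changes were -1.59 (SE 0.107, adjusted p = 3.06e-05) in Ku and -1.82 (SE 0.117, adjusted p = 4.43e-06) in Cov cells, and these passed on the spike-in scale, whereas with equal medians they turned to 0.27 and 0.17 and with median-of-ratios were -0.22 and -0.28, none of them called. Relative to the median active gene CCNK lay from -0.49 to -0.011 log2 units in Ku and from -0.51 to -0.14 in Cov cells over the 3 scales, nearest to it with equal medians.

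**Figure D2:**
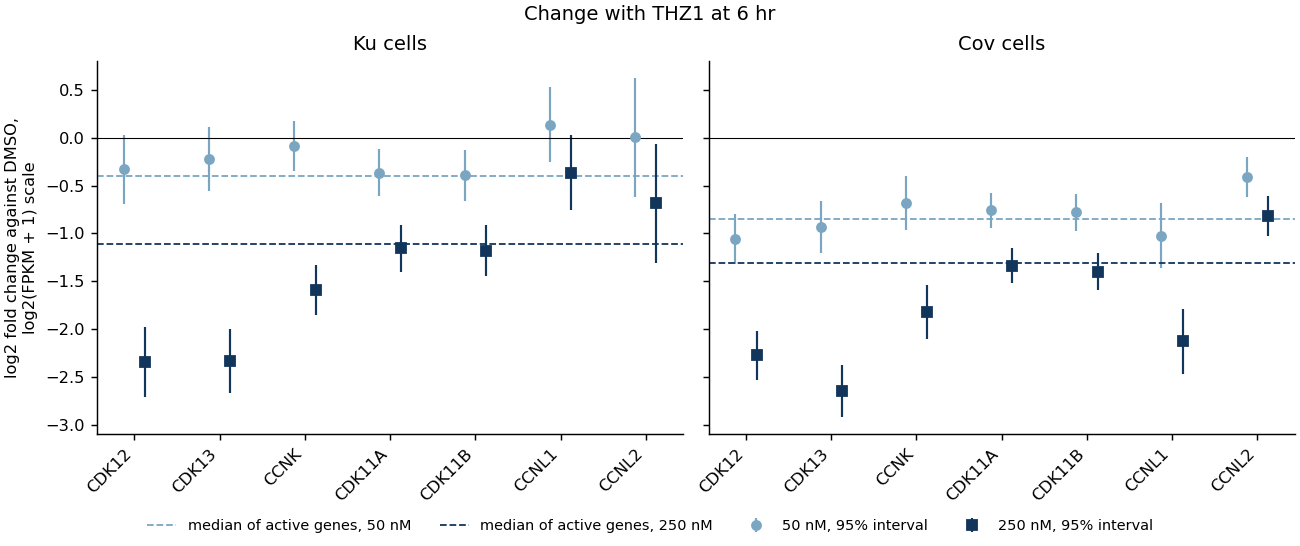
Log2 fold change against DMSO on the log2(FPKM + 1) scale with 95% confidence intervals from limma (n = 2 per group) for the 7 genes at 50 nM (circles) and 250 nM (squares) in Ku and Cov cells, with dashed lines at the median of all active genes. At 250 nM CDK12, CDK13 and CCNK lie below the dashed line with their whole interval in both lines, CCNL1 only in Cov cells, and the intervals of CDK11A and CDK11B span it. With libraries rescaled to equal medians, CCNK, CDK11A, CDK11B and CCNL2 are above 0 in both lines and CCNL1 in Ku cells, and CCNK is only 0.011 below the median active gene in Ku and 0.14 below it in Cov cells.

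On the spike-in scale the CDK11 copies stayed near the median active gene, with 47.7% (CDK11A) and 46.3% (CDK11B) of active genes having a lower log2 fold change at 250 nM in Ku and 48.4% and 45.2% in Cov cells. Genes above 10 FPKM in at least 1 library had a lower median than either copy's change, at -1.29 in Ku and -1.50 in Cov cells. In Ku cells CDK11A was at 26.9 and 23.7 FPKM with DMSO, 19.9 and 18.8 at 50 nM, and 10.3 and 11.3 at 250 nM. CDK11B was at 38.8 and 32.4, then 27.5 and 26.0, then 14.4 and 15.8 FPKM. The groups of both copies stepped down without overlap. The Ku changes at 50 nM, -0.37 (SE 0.0999, adjusted p = 0.0230) and -0.39 (SE 0.108, adjusted p = 0.0240), did not pass, and those at 250 nM, -1.16 (SE 0.0999, adjusted p = 7.61e-05) and -1.18 (SE 0.108, adjusted p = 9.72e-05), did. The call of CDK11B at 250 nM was lost without the 250 nM replicate 1 of Ku cells, at -1.12.

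In Cov cells CDK11A was at 41.4 and 42.7 FPKM with DMSO, 24.5 and 24.4 at 50 nM, and 16.2 and 15.9 at 250 nM. CDK11B was at 57.5 and 59.4, then 34.8 and 32.4, then 21.8 and 21.3 FPKM. Replicates lay close together and the 3 groups stood clear of each other. The changes were -0.76 (SE 0.0776, adjusted p = 8.93e-05) and -0.78 (SE 0.0807, adjusted p = 9.40e-05) at 50 nM, and -1.34 (SE 0.0776, adjusted p = 2.83e-06) and -1.40 (SE 0.0807, adjusted p = 2.78e-06) at 250 nM. Those at 50 nM turned to 0.42 and 0.41 with equal medians and 0.24 and 0.23 with median-of-ratios, none of them called. The summed CDK11 FPKM, which does not rest on the split of reads between the copies but may rest on that with the overlapping noncoding RNA, was 42.5% of DMSO in Ku and 37.4% in Cov cells at 250 nM. With equal medians the changes of CDK11A and CDK11B at 250 nM turned to 0.71 and 0.72 in Ku and to 0.66 and 0.62 in Cov cells, all called higher except the last. Relative to the median active gene, CDK11A lay between -0.048 and 0.43 log2 units in Ku and -0.030 and 0.35 in Cov cells over the 3 scales, and CDK11B between -0.074 and 0.43 and between -0.092 and 0.31.

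The cyclin L genes, whose products bind CDK11, gave different values in the lines, CCNL1 above all. In Ku cells CCNL1 was at 24.3 and 21.9 FPKM with DMSO, 27.9 and 23.3 at 50 nM, and 15.3 and 20.6 at 250 nM. The 50 nM libraries overlapped with DMSO, and the 250 nM libraries were lower but far apart. Neither dose passed, with log2 fold changes of 0.14 (SE 0.161, adjusted p = 0.494) and -0.36 (95% interval -0.76 to 0.03, adjusted p = 0.0729). The latter ranged from -0.57 to -0.16 with single libraries left out. At 250 nM the direction turned with the scale, to a called 1.53 (adjusted p = 1.58e-04) with equal medians and 1.03 (adjusted p = 9.46e-04) with median-of-ratios. In Cov cells CCNL1 was at 28.2 and 31.4, then 12.3 and 16.3, then 6.38 and 5.69 FPKM, with no overlap between groups. It fell at both doses on the spike-in scale, with log2 fold changes of -1.02 (SE 0.143, adjusted p = 3.57e-04) and -2.13 (SE 0.143, adjusted p = 5.27e-06), although the change at 250 nM was -0.21 with equal medians and -0.64 with median-of-ratios, neither called, and that at 50 nM turned to 0.14 with equal medians. CCNL1 kept 77.5% of its DMSO level in Ku and 20.3% in Cov cells at 250 nM, a difference between lines that was not tested.

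CCNL2 was the best kept of the 7 in Cov cells. In Ku cells it was at 88.7 and 84.3 FPKM with DMSO, 95.9 and 78.6 at 50 nM, and 40.3 and 70.7 at 250 nM. The pair at 250 nM differed by 0.80 log2 units, more than all but 0.877% of active genes in those libraries, where the median gene differed by 0.09. The changes of 0.01 (SE 0.253, adjusted p = 0.989) and -0.68 (95% interval -1.31 to -0.06, adjusted p = 0.0404) did not pass, and that at 250 nM ranged from -0.29 without the 250 nM replicate 1 to -1.08, which passed, without the 250 nM replicate 2. With equal medians it turned to 1.27 and with median-of-ratios to 0.75, neither called. Its Cov libraries were at 52.4 and 52.2, then 36.8 and 41.6, then 29.9 and 28.7 FPKM, falling by group without overlap. The change at 50 nM, -0.41 (SE 0.0889, adjusted p = 0.00320), did not pass, and that at 250 nM, -0.81 (SE 0.0889, adjusted p = 6.44e-05), did, but it turned to a called 1.21 with equal medians and 0.76 with median-of-ratios. Relative to the median active gene CCNL2 lay higher by 0.49 to 0.90 log2 units at 250 nM in Cov cells over the 3 scales.

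Over all 7 genes, the number called lower, with both a log2 fold change beyond 0.5 and an adjusted p under 0.001, has to be read against the share of all active genes called. In Ku cells at 50 nM limma called 0 of 7, beside 11.3% of active genes, and 2 of the 7 (CDK11A and CDK11B) were lower with an unadjusted p under 0.05, beside 61% of active genes. At 250 nM 5 of 7 were called lower, beside 68.6%. In Cov cells 5 of 7 were called lower at 50 nM, beside 70.5%, and 7 of 7 at 250 nM, beside 84%. With libraries rescaled to equal medians, 2 were called lower and 3 higher at 250 nM in Ku, beside 11.6% and 26.9% of active genes, and 1 lower and 2 higher in Cov, beside 11.3% and 26.4%. With median-of-ratios 2 were lower and 1 higher in each line, beside 19% and 11.1% in Ku and 18.9% and 8.57% in Cov, and with neither scaling was any called at 50 nM, where at most 2.72% of active genes were called lower in either line. The count at 50 nM in Cov cells was 3 without DMSO replicate 1, beside 48.4% of active genes, and 0 without DMSO replicate 2, beside 30.3%. Both treated libraries lay below both DMSO libraries for 4 of 7 genes at 50 nM in Ku (75.8% of active genes), and for 7 of 7 at 250 nM in Ku (95.9%), at 50 nM in Cov cells (95.7%) and at 250 nM in that line (95.6%). As for size, the median log2 fold change of the 7 was -0.22, -1.18, -0.78 and -1.82 in these comparisons, in the order Ku 50 nM, Ku 250 nM, Cov 50 nM and Cov 250 nM, against -0.40, -1.11, -0.85 and -1.31 over all active genes.

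In the step from 50 to 250 nM CDK13, CDK12 and CCNK had the lowest log2 fold changes of the 7 in both lines on the spike-in scale, while in Cov cells CCNL1 and CCNK were nearly level, at -0.35 and -0.34 with equal medians and -0.60 and -0.59 with median-of-ratios. In Ku cells CDK13 changed by -2.12 (SE 0.136, adjusted p = 8.61e-05), CDK12 by -2.02 (SE 0.147, adjusted p = 1.20e-04) and CCNK by -1.51 (SE 0.107, adjusted p = 1.12e-04). CDK11A and CDK11B each changed by -0.79, with only CDK11A past the threshold (adjusted p = 7.40e-04 and 0.00103), and CCNL1 and CCNL2 by -0.50 and -0.69, which did not pass. The 4 genes called lower stood beside 36% of active genes. Only 3.77% of active genes had a lower value than CDK13, and 4.59% a lower value than CDK12. The Ku count was 0 without the 50 nM replicate 1 or the 250 nM replicate 1, and 1 without the 250 nM replicate 2, where the lone library is taken to vary as the others do. The share of active genes called fell in the same fits, to 5.89%, 5.55% and 7.17%. With equal medians 2 were called lower, beside 6.55%, and CDK11A and CDK11B turned to 0.41 and 0.43, neither called.

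In Cov cells the same step changed CDK13 by -1.71 (SE 0.115, adjusted p = 5.85e-05), CDK12 by -1.22 (SE 0.108, adjusted p = 1.35e-04), CCNK by -1.14 (SE 0.117, adjusted p = 2.41e-04) and CCNL1 by -1.11 (SE 0.143, adjusted p = 6.13e-04). CDK11A at -0.58 and CDK11B at -0.62 also passed on the spike-in scale, but turned to 0.23 and 0.20 with equal medians, neither called. CCNL2 at -0.40 did not pass. Thus 6 of 7 were called lower, beside 24.4% of active genes, and 2.80% had a lower value than CDK13. The count fell to 3 without either DMSO library (15.4% of active genes in each case) and without the 250 nM replicate 1 (11.9%) or 2 (10.7%). It was 1 with equal medians, beside 4.95%, 2 with median-of-ratios, beside 7.92%, and 3 without a minimum FPKM, beside 9% of all genes. CDK13 was called lower for this step on all 3 scales in both lines, at -1.12 in Ku and -1.10 in Cov cells with equal medians.

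Ratios of FPKM within a library compare the genes with each other and do not depend on any single scaling factor of that library. The ratio of CCNK to the sum of CDK12 and CDK13 was 0.877 and 0.893 with DMSO in Ku cells, 0.983 and 1.06 at 50 nM, and 1.89 and 1.75 at 250 nM. In Cov cells it was 1.22 and 1.28, then 1.73 and 1.53, then 2.64 and 2.18. In both lines each group lay above the one before, so that more cyclin K RNA stood beside its kinases' RNA at 250 nM. An exact two-sided permutation test of the ordered groups gave p = 0.0222 in each line, the smallest that 90 arrangements allow, and 0.0741 after adjustment over the 10 ratios tested. At that floor a few fully ordered ratios cannot reach an adjusted p of 0.05, so missing it decides nothing here.

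The ratio of CCNL1 to CCNL2 was 0.274 and 0.260 with DMSO in Ku cells, 0.291 and 0.297 at 50 nM, and 0.379 and 0.291 at 250 nM. In Cov cells it was 0.538 and 0.600, then 0.334 and 0.391, then 0.213 and 0.198. The Cov groups stepped down without overlap (exact permutation p = 0.0222, adjusted 0.0741), while in Ku cells both 250 nM libraries lay above both DMSO libraries (exact permutation p = 0.178, adjusted 0.296). The cyclin L genes stood in nearly equal proportion to CDK11 in Cov cells, with a ratio of summed FPKM of 0.817 ± 0.00245 with DMSO and 0.941 ± 0.0224 at 250 nM. In Ku cells that ratio was 1.81 ± 0.123 with DMSO and 2.82 ± 0.794 at 250 nM (exact permutation p = 0.178 in each line, adjusted 0.296).

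CDK12 to CDK13 stayed between 1.15 and 1.41 in all 6 Ku libraries. In Cov cells it was 1.03 and 1.08 with DMSO, 0.992 and 0.941 at 50 nM, and 1.59 and 1.51 at 250 nM, the highest being the 250 nM libraries. No trend over the ordered doses was found in either line (exact permutation p = 0.578, adjusted 0.578). CDK11A to CDK11B held between 0.691 and 0.752 in all 12 libraries, a ratio that rests on how the shared reads were divided.

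**Figure D3:**
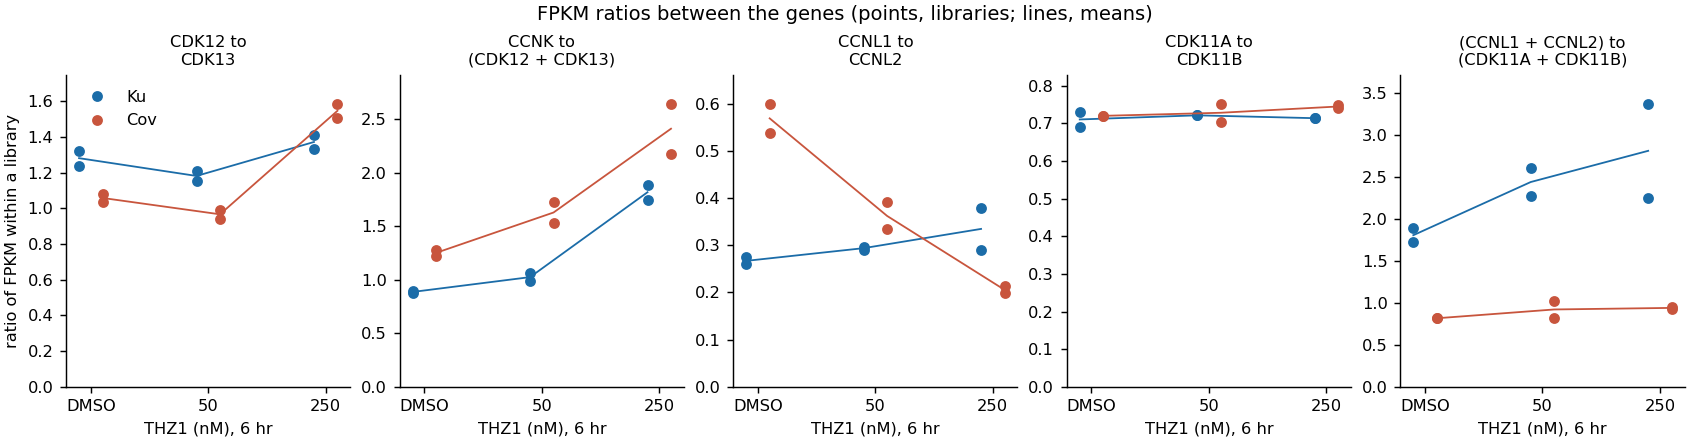
Ratios of FPKM within each library (points) by THZ1 dose in Ku and Cov cells, with group means joined by lines (n = 2) and each axis starting at 0. CCNK to CDK12 plus CDK13 is highest at 250 nM in both lines, and CCNL1 to CCNL2 declines from 0.569 to 0.206 in Cov cells. No ratio passed an adjusted p of 0.05, which a few fully ordered ratios cannot reach over 10 tests.

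The order of levels was rearranged by dose. At 50 nM in Ku cells it ran CCNL2, CCNK, CDK11B, CCNL1, CDK11A, CDK12 and CDK13, with the libraries of CDK11B and CCNL1 overlapping. In Cov cells at that dose it ran CCNL2, CDK11B, CCNK, CDK11A, CCNL1, CDK13 and CDK12, with the last pair overlapping. At 250 nM in Ku cells CCNL2 led at 55.5 ± 21.5 FPKM, then CCNL1 at 17.9 ± 3.75, CDK11B at 15.1 ± 0.975, CDK11A at 10.8 ± 0.701, CCNK at 9.42 ± 0.379, CDK12 at 3.004 ± 0.228 and CDK13 at 2.19 ± 0.259, with only CCNL1 and CDK11B overlapping. In Cov cells the order was CCNL2 at 29.3 ± 0.825, CDK11B at 21.5 ± 0.350, CDK11A at 16.0 ± 0.152, CCNK at 12.4 ± 1.80, CCNL1 at 6.03 ± 0.489, CDK12 at 3.12 ± 0.0705 and CDK13 at 2.02 ± 0.0270, with no overlap. Among active genes CDK13 had moved from above 56.0% of them to above 43.8% in Ku cells, and from 56.4% to 39.3% in Cov cells. CCNL2 moved from 89.6% to 92.3% and from 79.9% to 86.7%.

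The genes outside the set of 7 whose course over the 12 libraries lay closest were found by the root mean square distance of log2(FPKM + 1), centred on the DMSO mean of each line. For CDK13 these were NUP50, a nuclear pore gene, at 0.0521 log2 units and CEBPG, a bZIP transcription factor, at 0.0730. For CDK12 they were USP6NL, a GTPase-activating protein gene, at 0.0667 and ISL1, a LIM homeobox factor, at 0.0723. CCNK lay closest to C10orf118 (0.0680) and to PNP (0.0891), which encodes purine nucleoside phosphorylase. EXOSC7, an RNA exosome subunit, was the closest of these to both CDK11A (0.0547) and CDK11B (0.0507), followed by CDK2 (0.0598) and PTPMT1 (0.0659). CCNL2 lay closest to ADCK5 (0.116) and SEPT7P2 (0.144), and CCNL1 had the most distant neighbours, EPS8 at 0.168 and GREM1, a BMP antagonist, at 0.173. Among the 7 themselves, CDK11A and CDK11B, which share much of their sequence, were the closest pair at 0.0394, nearer to each other than to EXOSC7. CDK12 and CDK13 were 0.170 apart, CCNK was 0.407 from CDK12 and 0.474 from CDK13, and CCNL1 was 0.617 from CCNL2. The median active gene lay between 0.402 and 0.829 from these genes.

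Other kinases and cyclins of the transcription cycle are read beside the 68.6% of active genes called lower at 250 nM in Ku and 84% in Cov cells. Of 9 listed genes of CDK7, Mediator kinase and P-TEFb complexes, 8 were called lower at 250 nM in Ku and 9 in Cov cells on the spike-in scale, with medians of -1.37 and -1.63, which turned to 0.32 and 0.26 with equal medians (0 lower and 2 higher in Ku, 2 lower and 0 higher in Cov). The Ku count was 5 without DMSO replicate 1 or without the 250 nM replicate 1. CDK7, the main target of THZ1, was the lowest in Ku cells, with 26.3 and 19.5 FPKM under DMSO and 3.49 and 3.22 at 250 nM (log2 fold change -2.44, adjusted p = 3.38e-05). CCNH, the cyclin of CDK7, was the highest there at -0.61, which did not pass (adjusted p = 0.00383) and turned to a called 1.29 with equal medians and 0.79 with median-of-ratios. In Cov cells the lowest was CCNT1, a cyclin of CDK9, at -3.03 (adjusted p = 9.69e-07), and the highest was CDK19, a Mediator kinase, at -0.997 (adjusted p = 1.71e-05), or 0.48 and not called with equal medians. At 50 nM, where 11.3% of active genes were called lower in Ku and 70.5% in Cov cells, 0 of 9 were called in Ku and 5 in Cov cells, or 1 without DMSO replicate 2 and 8 without the 50 nM replicate 2 of Cov cells.

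The cell cycle kinases and cyclins drive division rather than transcription. All 11 active genes of 12 listed were called lower in each line on the spike-in scale, with medians of -1.70 in Ku and -2.44 in Cov cells, which with equal medians were 0.25 and -0.39 (2 lower and 2 higher in Ku, 4 lower and 3 higher in Cov). CCNE1, the G1/S cyclin, was the lowest in Ku cells, at 41.5 and 38.2 FPKM with DMSO and 2.91 and 2.64 at 250 nM (-3.44, adjusted p = 6.52e-06). CCNA2, the S phase cyclin, was the lowest in Cov cells at -3.32 (adjusted p = 8.16e-07). CDK4 was the highest in both, at -0.92 (adjusted p = 1.42e-04) and -0.98 (adjusted p = 1.91e-05), and it turned to a called 1.03 and 1.08 with equal medians. At 50 nM 3 of 11 were called lower in Ku cells, or 0 with any 1 Ku library left out, and 11 in Cov cells, or 6 without DMSO replicate 2.

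Homologous recombination and replication stress genes were listed because several are known to need CDK12. Of 16 genes, 13 were called lower at 250 nM in Ku and 16 in Cov cells on the spike-in scale, with medians of -1.30 and -1.75, turning to 0.48 and 0.10 with equal medians (1 lower and 6 higher in Ku, 2 lower and 4 higher in Cov). The Ku count was 7 without a minimum FPKM, 7 without DMSO replicate 1, 5 without the 250 nM replicate 1 and 6 without the 250 nM replicate 2. PALB2, the partner of BRCA2, was the lowest in both lines, at 10.95 and 8.71 FPKM with DMSO and 0.448 and 0.628 at 250 nM in Ku cells (-2.81, adjusted p = 1.87e-05) and at -3.15 (adjusted p = 9.17e-07) in Cov cells. It was called lower on all 3 scales. The highest were FANCD2 in Ku cells at -0.56, which did not pass (adjusted p = 0.00731) and turned to a called 1.29 with equal medians and 0.80 with median-of-ratios, and the checkpoint kinase gene ATM in Cov cells at -0.77 (adjusted p = 3.58e-04), or a called 0.90 with equal medians. At 50 nM 2 of 16 were called lower in Ku, or 0 with any 1 Ku library left out, and 15 in Cov, or 8 without DMSO replicate 2.

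Splicing genes were listed beside CDK11, which acts in splicing. Of 20 genes for SR proteins, their kinases and spliceosome factors, 17 were called lower at 250 nM in Ku and 20 in Cov cells on the spike-in scale, with medians of -1.67 and -1.87 that turned to 0.19 and 0.13 with equal medians (0 lower and 5 higher in Ku, 2 lower and 3 higher in Cov). SRSF3 was the lowest in Ku cells, at 183.8 and 170.1 FPKM with DMSO and 33.1 and 32.2 at 250 nM (-2.40, adjusted p = 7.58e-06), and SF3B1 the highest at -0.78 (adjusted p = 7.52e-04), or a called 1.19 with equal medians. CLK1, a kinase of SR proteins, was the lowest in Cov cells, at 24.7 and 24.5 FPKM with DMSO and 3.08 and 3.001 at 250 nM (-2.66, adjusted p = 1.18e-06), and SRSF9 the highest at -1.07 (adjusted p = 3.29e-05), or a called 0.98 with equal medians. At 50 nM 3 of 20 were called lower in Ku, or 0 with any 1 Ku library left out, and 19 in Cov, or 7 without DMSO replicate 2. With median-of-ratios at 250 nM, the numbers lower and higher in Ku were 2 and 1 of the transcription list, 5 and 0 of the cell cycle list, 1 and 3 of the recombination list and 3 and 1 of the splicing list, and in Cov 4 and 0, 6 and 1, 2 and 0, and 6 and 1. The list counts on the spike-in scale stand beside 68.6% of active genes called lower at 250 nM in Ku and 84% in Cov cells. Those with other scalings stand beside the shares called lower and called higher given above for each scaling. Without single libraries the shares of active genes fell too, at 250 nM in Ku cells to 51.2% without DMSO replicate 1, 42.7% without the 250 nM replicate 1 and 44.3% without the 250 nM replicate 2, and at 50 nM in Ku cells to at most 0.919%. In Cov cells at 50 nM the share was 30.3% without DMSO replicate 2 and 69.7% without the 50 nM replicate 2. Without a minimum FPKM 34.5% of all genes were called lower at 250 nM in Ku cells, and at 50 nM in that line 0.0127% of all genes and 0 genes of the 4 lists. Nothing is called particular to a list from these counts.

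**Figure D4:**
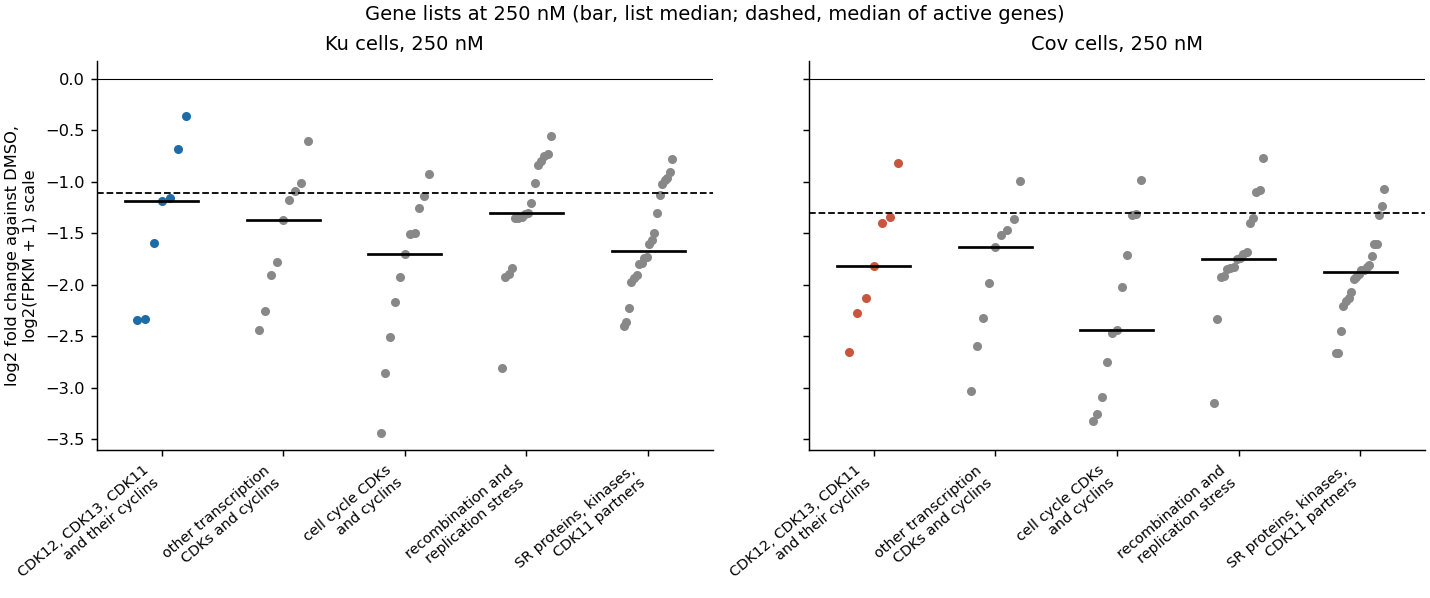
Log2 fold change at 250 nM against DMSO on the log2(FPKM + 1) scale for each gene (points) of the 7 and of the 4 lists in Ku and Cov cells, with bars at list medians and a dashed line at the median of active genes. All points lie below 0 on this spike-in scale; with libraries rescaled to equal medians, all 4 list medians in Ku and 3 in Cov cells lie above 0.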

How the data were processed

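Polyadenylated RNA from 12 libraries was sequenced by the authors as single-end reads of 75 bases after a stranded library preparation. Per the study's methods and the submitters' processing notes, reads were aligned to hg19 with HISAT and FPKM were made with Cufflinks and Cuffnorm, whose versions are not given in the sources used here. The deposited FPKM had been normalised by the authors to ERCC spike-ins, separately for each line. If that normalisation depended on level, ratios within a library could carry it. The tables held 23713 rows, 92 of them ERCC. Median log2 deviations of well detected ERCC rows from DMSO lay between -0.01 and 0.05 in all libraries. Since the FPKM had been scaled to ERCC rows, this closeness was fixed beforehand and is no check of the scale.

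Since FPKM are not counts, edgeR, which the study names, was not used. A linear model with 3 groups was fitted to log2(FPKM + 1) within each line (limma 3.58.1, R 4.3.3, eBayes with trend, two-sided), and p-values were adjusted by Benjamini-Hochberg over 14251 active genes, with the study's thresholds of 0.001 and 0.5. A fold change on this scale understates that of low genes. Read depth is unknown, so no counting intervals are given. With 2 libraries against 2 an exact permutation test cannot reach 0.05, so ratios were tested by exact permutation of a Jonckheere-Terpstra statistic over ordered doses. Alternatives were pseudocount, filter, scaling, replicate block, variance trend, threshold and leaving out each library.

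Gene positions and transcripts came from GENCODE for GRCh37, and 7 of 7 genes matched. Named genes were the 7, the 2 nearest in course to each, and the lowest and highest of each list at 250 nM in each line, and a few further list genes in the closing section, chosen after their values were seen. The members and lists were chosen with earlier results of these data known.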

Additional observations from a re-analysis of the deposited data

Results flagged for a closer look

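The ratio of CCNL1 to CCNL2 at 250 nM against DMSO was drawn out because it differed between the lines. In Ku cells both 250 nM libraries lay above both DMSO libraries, with a log2 change of 0.31, and in Cov cells both lay below, with -1.47. The difference between the lines was not tested. Without single libraries the Ku value ranged from 0.12 to 0.50 and the Cov value from -1.55 to -1.39. The Ku value rests in part on the 250 nM replicates, whose ratios were 0.379 and 0.291. Groups of 2 libraries are too small for a check of single outlying libraries.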

How the results depend on the processing

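On the spike-in scale, the 7 genes kept their direction under another pseudocount (0.1). A minimum of 10 FPKM or none, no variance trend, the replicate block and an adjusted p of 0.05 leave a fold change as it is and can move only the calls. The scale decided most directions, because it moves every gene: the median active gene at 250 nM was at -1.11 in Ku cells and -1.31 in Cov cells with spike-ins, 0.29 and 0.31 with equal medians, and near 0 (-0.00088 and 0.011) with median-of-ratios. Of the 42 log2 fold changes, equal medians reversed 28 and median-of-ratios 22.

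With equal medians the reversed log2 fold changes in Ku cells were CDK12 0.33, CDK13 0.43, CCNK 0.59, CDK11A 0.30 and CDK11B 0.29 at 50 nM. At 250 nM they were CCNK 0.27, CDK11A 0.71, CDK11B 0.72, CCNL1 1.53 and CCNL2 1.27, and from 50 to 250 nM CDK11A 0.41, CDK11B 0.43, CCNL1 0.73 and CCNL2 0.57. In Cov cells they were CDK12 0.073, CDK13 0.19, CCNK 0.50, CDK11A 0.42, CDK11B 0.41, CCNL1 0.14 and CCNL2 0.78 at 50 nM. At 250 nM they were CCNK 0.17, CDK11A 0.66, CDK11B 0.62 and CCNL2 1.21, and from 50 to 250 nM CDK11A 0.23, CDK11B 0.20 and CCNL2 0.43. With median-of-ratios they were, in Ku cells at 50 nM, CDK12 0.20, CDK13 0.30, CCNK 0.45, CDK11A 0.17 and CDK11B 0.15. At 250 nM they were CDK11A 0.22, CDK11B 0.21, CCNL1 1.03 and CCNL2 0.75, and from 50 to 250 nM CDK11A 0.053, CDK11B 0.068, CCNL1 0.36 and CCNL2 0.20. In Cov cells at 50 nM they were CDK13 0.017, CCNK 0.32, CDK11A 0.24, CDK11B 0.23 and CCNL2 0.59, at 250 nM CDK11A 0.22, CDK11B 0.17 and CCNL2 0.76, and from 50 to 250 nM CCNL2 0.17.

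The number of the 7 called lower became 2 in Ku cells and 1 in Cov cells at 250 nM with equal medians, and 2 in each line with median-of-ratios. At 50 nM in Cov cells it became 0 with either scaling (0.147% and 0.772% of active genes). For 250 against 50 nM it became 2 in Ku cells and 1 in Cov cells with equal medians and 2 in Cov cells with median-of-ratios, 3 in Cov cells without a minimum FPKM, and 7 in Ku cells at an adjusted p of 0.05 (58.2% of active genes). Over all active genes at 250 nM, 9774 were called lower and 7 higher in Ku cells with spike-ins, against 1654 and 3831 with equal medians.

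Leaving out each library in turn gave 0 to 6 called at 50 nM in Cov cells (30.3% to 69.7% of active genes), 7 in every case at 250 nM in Cov cells (73.3% to 86.6%) and 4 to 6 at 250 nM in Ku cells (42.7% to 63.5%). For 250 against 50 nM it gave 0 to 5 in Ku cells (5.55% to 32.3%) and 3 to 4 in Cov cells (10.7% to 27.9%). The lone library left in an arm is then taken to vary as the other groups do. At 50 nM in Ku cells CCNK ranged from -0.21 to 0.045 and CCNL2 from -0.14 to 0.15, neither called. The log2 change of CDK12 to CDK13 in Ku cells at 250 nM was 0.10, or -0.011 from log2(FPKM + 1), and that of CDK11A to CDK11B in Ku cells ranged from -0.032 to 0.046. With 1 library left out, the exact test of a ratio cannot reach 0.05.

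Replicate numbers did not pair the libraries, as deviations of same-numbered libraries correlated at 0.00034, -0.0077 and -0.0087 in Ku cells and at 0.028, -0.070 and -0.051 in Cov cells. With the replicate block, 1 of 7 genes was called lower for 250 against 50 nM in Cov cells in place of 6 (7.93% of active genes in place of 24.4%), and 3 in place of 4 in Ku cells (34.7% in place of 36%), while at 50 nM in Cov cells 4 were called in place of 5 (51% in place of 70.5%). The cause of these changes was not tested. Read depth is not known from FPKM, and 2 libraries a group limit what can be told.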

Other observations

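A few listed genes passed the test at 50 nM in Ku cells, where 11.3% of active genes and 0 of the 7 CDK and cyclin genes were called lower. Those named here were picked after their values were seen. SRSF3, an SR protein gene, went from 183.8 and 170.1 FPKM with DMSO to 58.1 and 50.0 at 50 nM (log2 fold change -1.70, adjusted p = 2.23e-04 by limma). BRCA1 went from 16.9 and 14.4 to 4.12 and 3.56 FPKM (-1.78, adjusted p = 4.01e-04). At 250 nM in Ku cells they were at -2.40 and -1.84 on the spike-in scale, and neither was called lower at that dose with equal medians. Both calls at 50 nM were lost with any 1 Ku library left out and with equal medians (-0.99 and -1.10), and held with median-of-ratios (-1.14 and -1.24). In Cov cells at 50 nM the same genes changed by -1.68 (adjusted p = 2.25e-05) and -1.59 (adjusted p = 2.37e-05) on the spike-in scale. There 70.5% of active genes were called lower. With either other scaling, 0 of the 20 splicing and 0 of the 16 recombination genes were called lower in Cov cells at that dose. The shares of active genes were then 0.147% with equal medians and 0.772% with median-of-ratios.

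Others lay above DMSO at 50 nM in Ku cells without passing the test on the spike-in scale. FANCA, of the Fanconi anemia core complex, was at 18.0 and 18.6 FPKM against 11.9 and 9.93 with DMSO (0.70, adjusted p = 0.00550), and was called higher at this dose with equal medians (1.31 in Ku and 1.22 in Cov cells) and with median-of-ratios (1.19 and 1.05). CCNT2, a cyclin of CDK9, was at 15.9 and 15.9 against 11.2 and 9.78 (0.56, adjusted p = 0.0530). CLK1 was at 63.8 and 54.8 against 47.5 and 41.9 (0.40, adjusted p = 0.102). The last pair was not called at this dose in Ku cells with either other scaling.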
